A study of Mus musculus with 2 samples.

Results

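The 34 genes described here encode the enzymes that make cholesterol and long-chain fatty acids and the proteins that control them, and they were compared between blood stem cells of Wip1 knockout (Wip1 KO) and wild-type mice. Members were taken from a list by gene name, as every probe set whose only assigned gene is on it. Of the 34 genes, 33 had such a probe set, with 78 probe sets among 45037 on the array, and Acat2 had none. The Wip1 KO group is 1 array of haematopoietic stem cells from mice of 3 months lacking Wip1, and the wild-type group is 1 array of the same cell type and age. Wip1 is the phosphatase encoded by Ppm1d, a known brake on p53 and on DNA damage kinases. How the cells were sorted, how many animals each array pooled, their sex and strain, and which part of the gene was deleted were not stated in the labels.

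Cholesterol is built from acetyl-CoA through mevalonate, squalene and lanosterol, and fatty acids from acetyl-CoA through malonyl-CoA, after which desaturases add double bonds and elongases lengthen the chain. The transcription factors SREBP-1 and SREBP-2 drive most of these genes: when sterols run low, SCAP escorts SREBP out of the endoplasmic reticulum, and when sterols are plentiful the INSIG proteins hold it there. SREBP-2 mainly serves sterol genes and SREBP-1 mainly fatty acid genes, and the growth kinase complex mTORC1 is known to raise SREBP activity. In mice, export of cholesterol from blood stem and progenitor cells is known to restrain their expansion.

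Promoter windows are shown for 4 members. The windows cover 250 bases before to 50 bases after the start of the gene in RefSeq (GRCm38.p6), on the gene's own strand. Capitals mark 2 kinds of motif, on either strand: CACNCCAC, a short form of the sterol response element that SREBP binds, and CCAAT, the site of its partner NF-Y. Hmgcs1 (chr13:119690101-119690400, plus strand) and Insig1 (chr5:28071162-28071461, plus strand) are shown because they were the measured members whose windows held a form of the sterol response element. Hsd17b7 (chr1:169969156-169969455, minus strand) and Insig2 (chr1:121332540-121332839, minus strand, 1 of 3 windows of this gene) are shown because they were 2 of the 3 members that differed most. These 4 were chosen after the values were known.
Hmgcs1: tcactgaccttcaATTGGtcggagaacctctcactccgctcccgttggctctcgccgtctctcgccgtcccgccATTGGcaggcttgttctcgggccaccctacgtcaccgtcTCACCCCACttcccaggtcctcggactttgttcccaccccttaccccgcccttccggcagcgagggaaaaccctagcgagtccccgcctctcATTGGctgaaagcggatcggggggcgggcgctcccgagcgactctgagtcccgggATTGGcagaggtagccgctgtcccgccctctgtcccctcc
Insig1: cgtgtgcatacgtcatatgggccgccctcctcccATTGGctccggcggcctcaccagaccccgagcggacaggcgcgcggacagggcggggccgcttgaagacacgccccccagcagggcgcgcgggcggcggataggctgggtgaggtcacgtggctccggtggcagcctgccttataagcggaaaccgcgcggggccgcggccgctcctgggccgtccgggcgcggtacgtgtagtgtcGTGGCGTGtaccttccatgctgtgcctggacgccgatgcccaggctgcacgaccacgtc
Hsd17b7: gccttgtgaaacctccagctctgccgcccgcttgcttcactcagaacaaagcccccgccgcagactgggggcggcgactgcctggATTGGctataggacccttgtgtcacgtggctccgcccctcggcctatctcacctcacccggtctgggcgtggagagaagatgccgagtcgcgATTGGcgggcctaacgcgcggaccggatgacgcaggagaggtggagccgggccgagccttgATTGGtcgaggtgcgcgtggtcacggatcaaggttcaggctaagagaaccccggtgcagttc
Insig2: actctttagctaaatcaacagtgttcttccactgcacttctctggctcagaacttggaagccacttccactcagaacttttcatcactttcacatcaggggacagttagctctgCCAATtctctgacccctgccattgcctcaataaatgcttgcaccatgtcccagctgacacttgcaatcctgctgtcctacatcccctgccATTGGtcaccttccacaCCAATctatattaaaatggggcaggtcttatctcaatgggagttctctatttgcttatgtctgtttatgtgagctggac

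The Hmgcs1 window held the element in the longer form TCACNCCAC, which contains the short form, 137 bases before the start, with 4 CCAAT motifs around it. The Insig1 window held 1 short form and 1 CCAAT, and the printed windows of Hsd17b7 and Insig2 held 3 CCAAT each and neither form of the element. The 2 other windows of Insig2 held no CCAAT and neither form. Over the 36 windows analysed, which belong to 27 members, 23 windows (63.9%) held a CCAAT, against 37.4% of all 32851 promoter windows. The short form was in 3 of the 36 (8.33%), against 6.24% of all windows, and the long form in 1 (2.78%), against 1.24%. The third window with the short form belongs to Acat2, for which no probe set was measured. A match is a run of letters, not a known site, and SREBP also binds forms that these letters leave out.

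**Figure D1:**
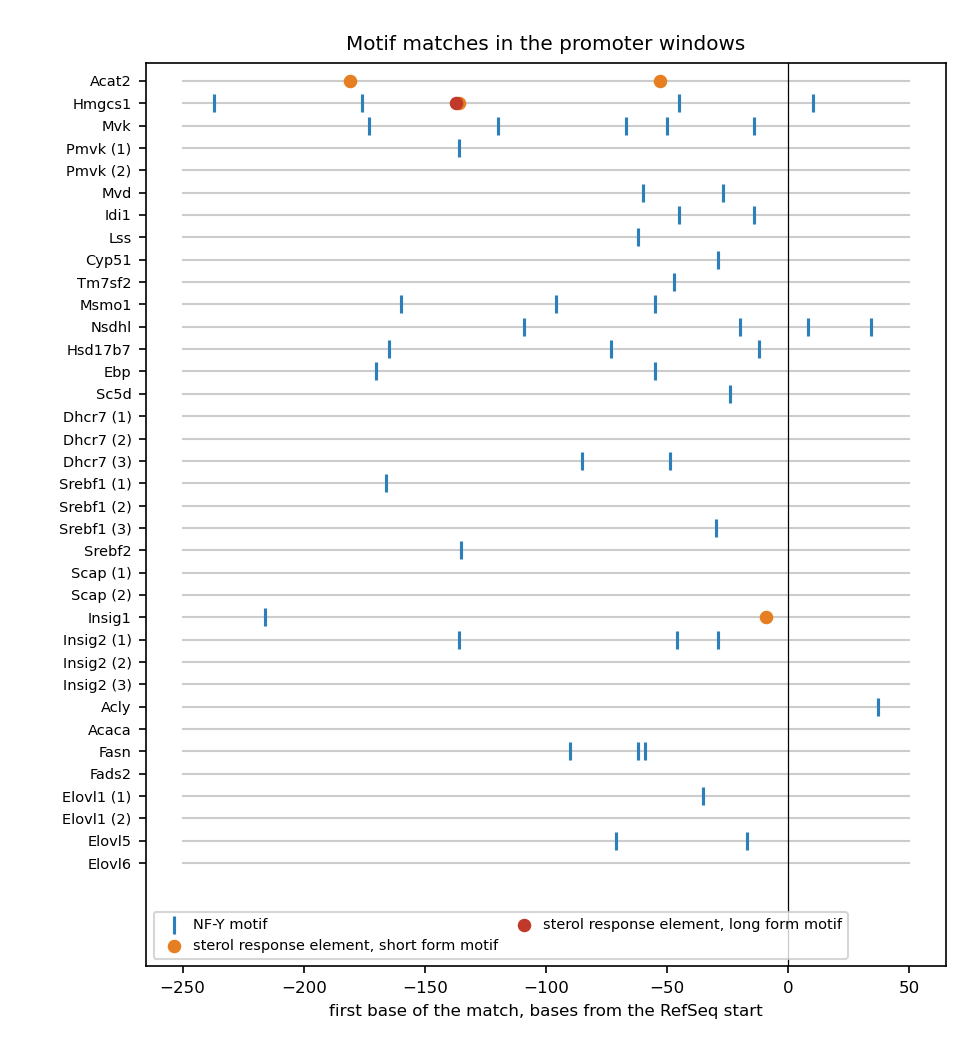
Position of each motif match in the 36 promoter windows of 27 member genes, in bases from the RefSeq start; numbers in brackets tell apart several windows of 1 gene. Blue ticks are NF-Y motifs (CCAAT), orange points the short and the red point the long form of the sterol response element; 22 of the 27 genes have at least 1 NF-Y motif, and 3 genes have a sterol response element form.

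The deposited values are 1 intensity per probe set and array, in arbitrary units. They were turned to log2, centred so that the median difference over detected probe sets of named genes was 0, and compared as Wip1 KO minus wild type. A gene is represented by its brightest probe set and called detected when its intensity exceeded the median of all probe sets on one array or both (the floor, 25.9 in the Wip1 KO array, 25.2 in the wild-type array). Of the 33 measured members 32 were detected. Scd1 was not, with 13.5 and 5.50 in Wip1 KO against 16.1 and 5.73 in wild type over its 2 probe sets. With 1 array per genotype there is no test, and no difference here has a replicate check. Spread could be estimated solely from how far a gene's own probe sets differ, an SD of 0.22 on the log2 scale (1.16-fold) across the 5084 genes that had 2 or more detected. That SD holds no variation between animals or arrays.

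As for the arrays themselves, Ppm1d had intensities of 160 and 59.0 in Wip1 KO against 167 and 55.6 in wild type over its 2 probe sets, so these probe sets do not set the genotypes apart, and where they lie relative to the deletion is not known. All 13 measured stem and progenitor markers were detected, but their levels were not alike on the arrays. Of these, 5 were higher in Wip1 KO by at least 0.32 on the log2 scale (38.5%, against 9.48% of all detected genes). That much lower were 3 (23.1%, against 7.80%). Flt3, a marker of multipotent progenitors, was at 1.26. Slamf1, a marker of long-term stem cells, was at -0.66, with detected probe sets from -0.66 to -0.13. Other markers on the list went both ways, with Hlf at 0.70, Procr at 0.13, Mecom at -0.08 and Tek at -0.59. The summed intensity of all 13 was 11821 in Wip1 KO against 9067 in wild type, and 9709 against 8175 without the brightest, Flt3. B cell genes summed to 6953 in Wip1 KO against 3205 in wild type, with 9 of 10 detected members higher, and to 1461 against 977 without the brightest, Dntt. The largest differences were those of Il7r (1.33), Dntt (1.31) and Blnk (1.14), while Ms4a1 was at -0.03. Pax5 held the identical value of 37.2 on both arrays and counts as higher only through the centring. Megakaryocyte and platelet genes summed to 963 in Wip1 KO against 1434 in wild type, with all 8 detected members lower in Wip1 KO. The other marker lists differed less or went both ways. Neutrophil genes summed to 13834 in Wip1 KO against 16267 in wild type, with 8 of 11 detected members lower. Without the brightest, Mpo, they summed to 10168.5 against 10769.8. Monocyte, macrophage and dendritic genes summed to 3560 in Wip1 KO against 3391 in wild type. T and NK cell genes summed to 820 in Wip1 KO against 1000 in wild type, with 3 of 4 detected members lower. Without the brightest, Nkg7, these summed to 152 against 165. Erythroid genes summed to 4611 in Wip1 KO against 4251 in wild type, but to 744 against 868 without the brightest, Car2, and 5 of 9 detected members were lower. The sums without a list's brightest marker were added after the values were seen. Adipocyte, stromal and liver markers were mostly undetected (3 of 10 above the floor), among them Adipoq, Fabp4, Alb and Cyp7a1 under it on both arrays. Xist, which is expressed in females, was lower in Wip1 KO (3778 against 6228), and the Y-linked Eif2s3y was higher (149 against 31.8). The part that cell makeup or sex plays in the lipid gene values was not tested, and in bulk RNA fewer cells of a type and less RNA per cell cannot be told apart.

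The pathway as a whole was close to level between the genotypes. None of the 32 detected members was 1.5-fold higher or lower in Wip1 KO, where 2.30% of all 11440 detected genes were that much higher and 1.55% that much lower. At a smaller threshold, 0.32 on the log2 scale, 3 members were higher (Fdft1, Hsd17b7 and Insig2), or 9.38%, against 9.48% of all detected genes, and no member was lower, against 7.80%. Differences ran from -0.30 (Idi1) to 0.48 (Fdft1), with 19 members higher and 13 lower and a median of 0.025, against a median of 0.00015 over all detected genes. Their SD was 0.19, against 0.28 over all detected genes, and 25 of 32 (78.1%) lay within the SD between probe sets, against 66.5% of all detected genes. The signs of Lss and Elovl5 rest on the centring of 0.013: without it 17 members were higher, 14 lower and 1 equal.

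**Figure D2:**
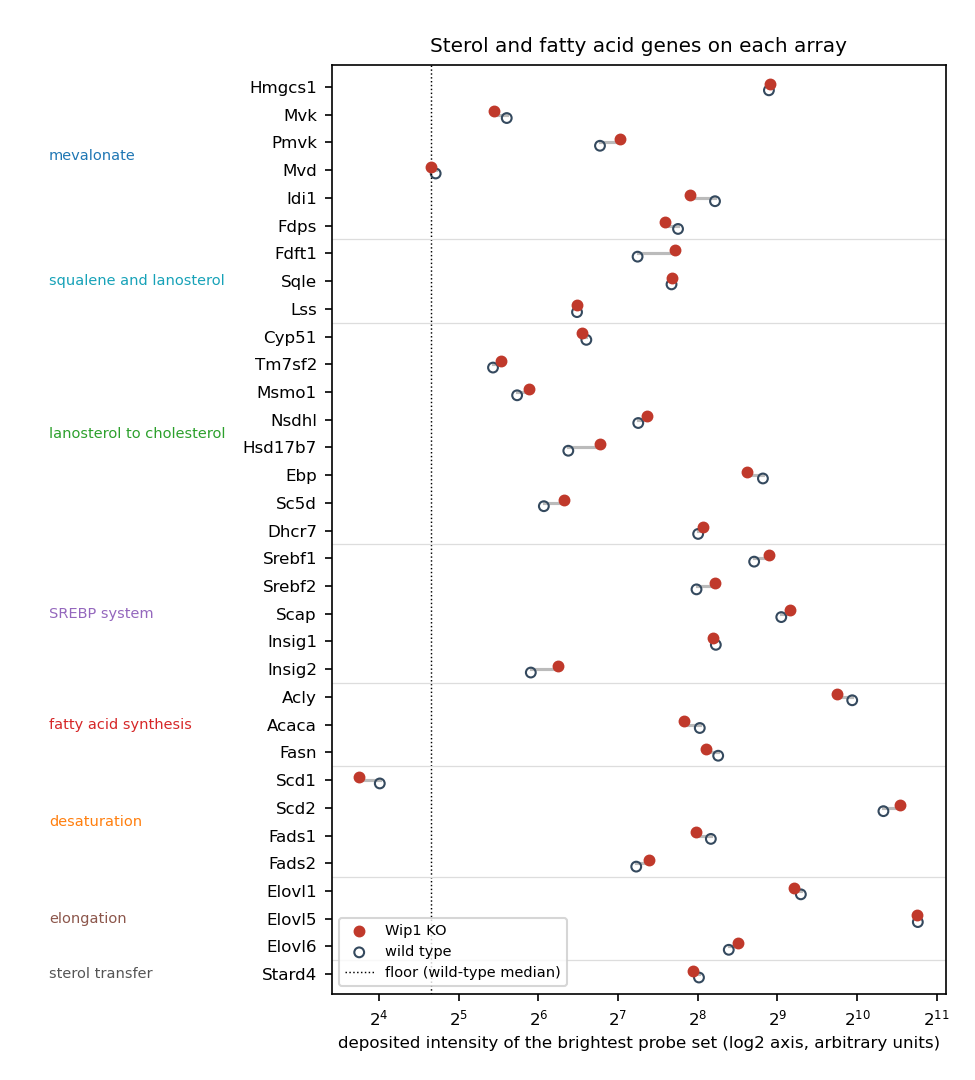
Deposited intensity of the brightest probe set of each of the 33 measured members on the Wip1 KO array (filled red) and the wild-type array (open), on a log2 axis in arbitrary units, with 1 array per genotype. The pairs lie close together for most genes, Fdft1 and Hsd17b7 have the widest gaps above the floor, and Scd1 lies under the floor on both arrays; levels of different probe sets are not comparable.

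**Figure D3:**
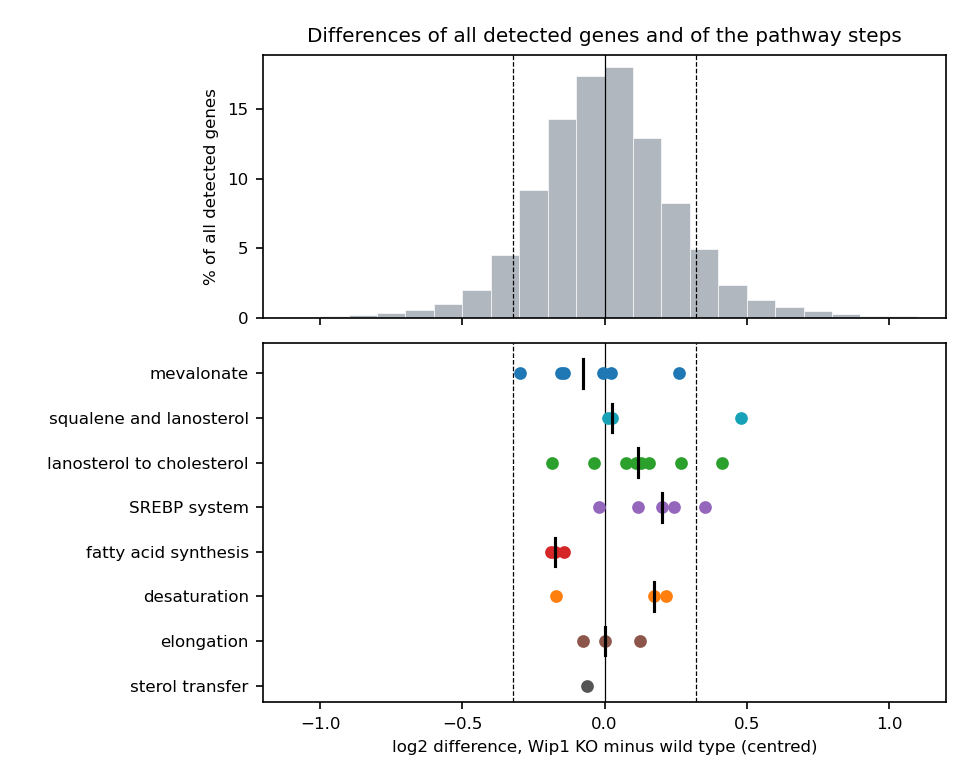
Top, share of the 11440 detected genes by log2 difference (Wip1 KO minus wild type) in bins of 0.1, with 44 genes beyond the axis; bottom, each detected member by pathway step, with the step's median as a black bar where it has at least 3 detected members. Dashed lines mark 0.32 either way, and only 3 members lie outside them, all higher in Wip1 KO.

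Early mevalonate genes had a median of -0.07 over 6 detected members. Of these 4 were lower in Wip1 KO, as were 5716 of all 11440 detected genes, and 4 of the 6 lay within the SD between probe sets. Idi1, the isomerase that makes dimethylallyl diphosphate, was the lowest member. It had intensities of 240 and 90.8 in Wip1 KO against 298 and 126 in wild type, so both probe sets were lower in Wip1 KO, by 1.23-fold and 1.38-fold. Fdps, which joins the isoprenoid units into farnesyl diphosphate, had 192 in Wip1 KO against 216 in wild type, a log2 difference of -0.15. Hmgcs1, the synthase that opens the pathway and a standard SREBP target, differed little on each of its 4 detected probe sets. These read 480, 403, 330 and 68.0 in Wip1 KO against 476, 415, 340 and 73.6 in wild type, with log2 differences from -0.10 to 0.024. Mevalonate kinase, Mvk, had 43.6 and 41.3 in Wip1 KO against 48.6 and 40.1 in wild type, with probe sets on either side of 0 (-0.14 and 0.06). Phosphomevalonate kinase, Pmvk, went the other way, with 130 in Wip1 KO against 109 in wild type by its only probe set (0.26). The decarboxylase gene Mvd sat at the floor, with 25.2 in Wip1 KO and 26.2 in wild type, and supports no statement about its level.

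The squalene and lanosterol step held the member with the highest difference, on which its probe sets disagreed. Fdft1, squalene synthase, had 210 in Wip1 KO against 152 in wild type in its brightest probe set, 1.40-fold higher (0.48), and 51.7 against 54.7 in its other detected probe set (-0.07). The brighter one is of the _x_at class, which can cross-hybridise with other transcripts. With such shared classes left out, Fdft1 is therefore at -0.07. Squalene epoxidase, Sqle, a rate-controlling enzyme of the pathway, had 206 in Wip1 KO against 204 in wild type by its only probe set (0.025). Lanosterol synthase, Lss, held the identical value of 89.6 on both arrays in its brightest probe set, while its dimmer one had 33.4 in Wip1 KO against 25.9 in wild type (0.38). Identical values were found in 2.58% of all 19906 detected probe sets with 1 gene and in 1 of the 59 detected member probe sets, and they cannot be read as a measured lack of difference.

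From lanosterol to cholesterol, 6 of 8 members were slightly higher in Wip1 KO, as were 5724 of all 11440 detected genes. The median of this step was 0.12, and 6 of its 8 members lay within the SD between probe sets. Sc5d, the desaturase near the end of the pathway, was higher in both detected probe sets, with 80.2 and 40.2 in Wip1 KO against 67.2 and 30.2 in wild type (0.27 and 0.43). Hsd17b7, a ketosteroid reductase, had 110, 48.9 and 45.2 in Wip1 KO against 83.1, 45.4 and 47.4 in wild type. Its brightest probe set, also of the _x_at class, was 1.33-fold higher (0.41), and the others lay at 0.12 and -0.05. The enzymes that strip methyl groups and reduce double bonds differed less. The methylsterol oxidase gene Msmo1 had 58.8 in Wip1 KO against 53.2 in wild type (0.16), and Nsdhl, the dehydrogenase that acts after it, 165 against 153 (0.13). The reductase gene Tm7sf2 had 46.2 in Wip1 KO against 43.2 in wild type (0.11), and Dhcr7, the reductase of the last step, 269 against 257 (0.08). The isomerase gene Ebp had 394 in Wip1 KO against 452 in wild type (-0.18).

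Cyp51, the lanosterol demethylase, gave the widest disagreement among its probe sets. Its brightest one had 93.8 in Wip1 KO against 97.2 in wild type (-0.04), and the dimmer one had 36.9 against 58.0, which is 1.56-fold lower in Wip1 KO (-0.64) and the only one of the 59 detected member probe sets past 1.5-fold. As the median over probe sets Cyp51 was at -0.34. Which of them measures the main transcript was not tested.

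Of the 5 genes of the SREBP system 4 had higher values in Wip1 KO, as did 5724 of all 11440 detected genes, and 3 of the 5 lay within the SD between probe sets. Their median was 0.20, and its range over 9 alternative settings was 0.16 to 0.23. Only Insig2 was past 0.32. Insig2, one of the endoplasmic reticulum anchors, was higher in both detected probe sets, with 75.9 and 73.2 in Wip1 KO against 60.0 and 60.0 in wild type (1.28-fold and 1.23-fold). Srebf2, the SREBP-2 gene, had 298 and 161 in Wip1 KO against 254 and 156 in wild type (0.25 and 0.07). Srebf1, the SREBP-1 gene, had 477 in Wip1 KO against 419 in wild type by its only probe set (0.20), which does not tell the SREBP-1a and SREBP-1c transcripts apart here. The escort gene Scap had 570 in Wip1 KO against 530 in wild type (0.12). Insig1, itself a sensitive SREBP target, did not go with them, with 293 in Wip1 KO against 300 in wild type (-0.021). The differences of Srebf1, Scap and Insig1 are smaller than the SD between probe sets.

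The cytosolic enzymes that make palmitate had slightly lower values in Wip1 KO by their brightest probe sets, with a median of -0.17 over 3 members. ATP citrate lyase, Acly, which supplies acetyl-CoA, had 863, 844 and 110 in Wip1 KO against 983, 852 and 119 in wild type over its detected probe sets (-0.17, -7.5e-05 and -0.10). The brightest of these is again of the _x_at class, and with the shared classes left out Acly was at -7.5e-05. Acetyl-CoA carboxylase, Acaca, had 227 in Wip1 KO against 261 in wild type (-0.19), and fatty acid synthase, Fasn, 275 against 306 (-0.14). Each of these differences is smaller than the SD between probe sets. The median lay between -0.19 and -0.14 over the 9 alternatives.

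Desaturases and elongases went both ways. Scd2, the stearoyl-CoA desaturase that was detected in these cells, was higher in all 3 probe sets, with 1485, 58.1 and 55.1 in Wip1 KO against 1289, 51.9 and 46.8 in wild type (0.22, 0.17 and 0.25). Fads1, the delta-5 desaturase gene, had 253 and 90.3 in Wip1 KO against 287 and 72.8 in wild type, so its probe sets differed in sign (-0.17 and 0.32). Fads2, the delta-6 desaturase gene, likewise had 168, 82.1 and 41.5 in Wip1 KO against 150, 91.9 and 42.9 in wild type (0.17, -0.15 and -0.04). No direction can be read for either gene.

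Elovl1, the elongase of very long saturated chains, was lower in all 3 detected probe sets, with 592, 518 and 183 in Wip1 KO against 629, 603 and 220 in wild type (-0.07, -0.21 and -0.26). All 3 are of the shared classes (_x_at or _a_at), so with those left out Elovl1 had no value. Elovl5, which extends polyunsaturated chains, had 1725 and 769 in Wip1 KO against 1739 and 755 in wild type (0.0010 and 0.04). Elovl6, which extends palmitate to stearate, had 363 and 193 in Wip1 KO against 336 and 190 in wild type (0.13 and 0.04). Its dimmest detected probe set had 29.9 in Wip1 KO and was under the floor in wild type, a difference of at least 0.26. Stard4, a carrier that moves cholesterol between membranes, had 246, 201 and 114 in Wip1 KO against 259, 249 and 151 in wild type, lower in each (-0.06, -0.29 and -0.40).

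**Figure D4:**
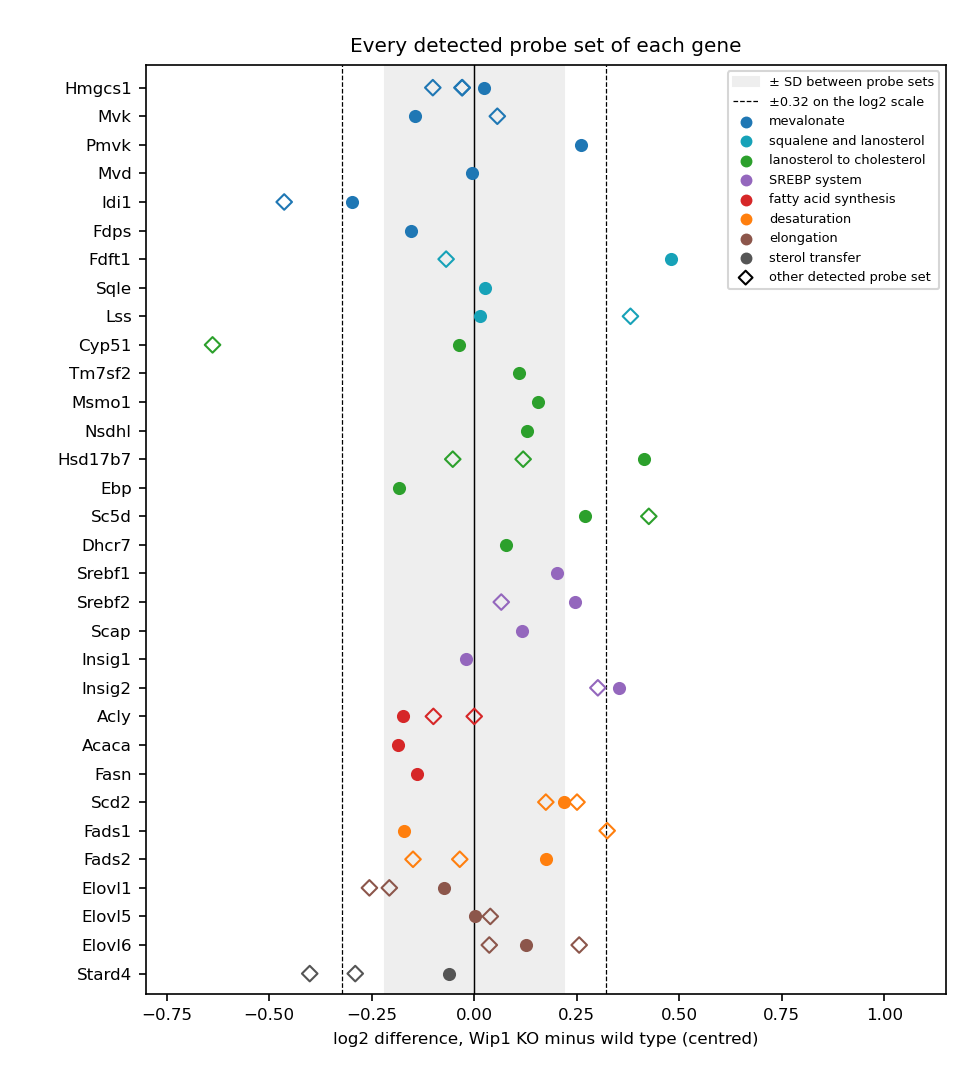
Log2 difference (Wip1 KO minus wild type) of all 59 detected probe sets of the 32 detected members; filled circles are the brightest probe set of a gene, open diamonds its others, colours the pathway steps, the grey band ± 1 SD between probe sets (0.22) and dashed lines 0.32 either way. Idi1 lies left of the band, Insig2 and Sc5d right of it with both probe sets. Fdft1, Hsd17b7, Fads1 and Lss are among the genes with probe sets inside the band and right of it. Cyp51 and Stard4 are among those with probe sets inside it and left of it.

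Agreement between probe sets is the closest to a repeat measurement that the arrays offer, although probe sets of a gene share the RNA sample and can share sequence. Of the 18 members with 2 or more detected probe sets, 12 (66.7%) had all of them on the same side of 0, against 56.6% of the 5084 such genes. Without the centring, an alternative added after the values were seen, that count was 10 (55.6%), against 54.5% of all such genes, since Lss and Elovl5 no longer counted. With it, 7 were higher (Lss, Sc5d, Srebf2, Insig2, Scd2, Elovl5 and Elovl6) and in 5 lower (Idi1, Cyp51, Acly, Elovl1 and Stard4). Every detected probe set was past the SD in 2 members that were higher, Insig2 and Sc5d, where 6.47% of such genes met that bound, and in 1 that was lower, Idi1, where 5.66% did. The other 14 detected members rested on a single detected probe set.

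Of 88 genes on 8 lists of neighbouring lipid pathways, 71 were detected. Of these, 12 were higher in Wip1 KO by at least 0.32 on the log2 scale (16.9%, against 9.48% of all detected genes). That much lower were 2 (2.82%, against 7.80%). The lists were chosen with earlier results of these data known, so these shares are no independent check. Abca1, the transporter that exports cholesterol to lipid-poor particles, was the only gene on these lists past 1.5-fold. It had 185 in Wip1 KO against 111 in wild type by its only detected probe set, 1.68-fold higher (0.75). Over the 5 detected genes of sterol efflux and LXR signalling, of 7 listed, the median was 0.34 and 4 of them were higher. Abca7 was at 0.41 and Rxra, a partner of LXR, at 0.34. The LXR genes themselves gave no value. Nr1h3 lay under the floor on both arrays (16.5 in Wip1 KO, 14.9 in wild type), and Nr1h2 had no probe set of its own. Abcg1, the other main exporter, had 811 in Wip1 KO against 756 in wild type (0.11), and Mylip, an LXR target, was at -0.15.

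The list of sterol uptake, storage and trafficking had a median of 0.12, with 6 of 9 detected genes higher in Wip1 KO and 3 lower, and 3 higher and 1 lower past 0.32. Lipa, the acid lipase that frees cholesterol from its esters, had 390 in Wip1 KO against 291 in wild type (0.43), and Npc1 and Npc2, which carry cholesterol out of the lysosome, had 94.6 and 3625 in Wip1 KO against 76.1 and 2920 in wild type (0.33 each). The 3 detected probe sets of Npc2 ran from 0.06 to 0.33. The lipoprotein receptor gene Lrp8 had 107 in Wip1 KO against 161 in wild type, 1.49-fold lower (-0.58), with -0.05 in its other detected probe set. Apart from Abca1, the genes named from the neighbouring lists were chosen after their values were seen. Macrophages also express Abca1, Lipa and Npc2. Of the 11 detected monocyte, macrophage and dendritic markers 7 were higher and 4 lower in Wip1 KO (median 0.15), with Csf1r at 1.40 and H2-Aa at -0.92, and Adgre1 was under the floor on both arrays. The part of such cells in the efflux values was not tested.

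The remaining 6 lists had medians between -0.14 and 0.10. Genes that draw isoprenoids off the mevalonate pathway had a median of -0.10 over 11 detected members. Of these 8 were lower, as were 5716 of all 11440 detected genes, and none was past 0.32 either way. Those that process SREBP and sense sterols had a median of 0.04 over 6. The supply of acetyl-CoA, malonyl-CoA and acyl-CoA had -0.07 over 9, with only Mecr past 0.32 (-0.34, its 3 detected probe sets from -0.34 to 0.63). Fatty acid oxidation had 0.07 over 11, and the remaining elongation and desaturation genes -0.14 over 8. The last list went both ways, with 3 higher and 5 lower. Among the lower genes, the 2 detected probe sets of Degs1 were at -0.29 and -0.40. Those of Hacd1 were at -0.31 and -0.30, and those of Hsd17b12 at -0.21 and -0.27. Fads3 and Elovl7 were past 0.32, both higher (25%, against 9.48% of all detected genes). Fads3, a fatty acid desaturase gene, had 90.6 in Wip1 KO against 65.3 in wild type (0.49), with 0.44 in its other detected probe set. Elovl7, an elongase gene, had 59.7 in Wip1 KO against 43.2 in wild type (0.48), and its 3 detected probe sets ran from -0.09 to 0.48. Glycerolipid synthesis and lipid droplet genes had 0.10 over 12, with 10 higher and 3 past 0.32, among them Lpin1, the phosphatidate phosphatase gene, at 0.37 and 0.33 in its 2 detected probe sets.

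**Figure D5:**
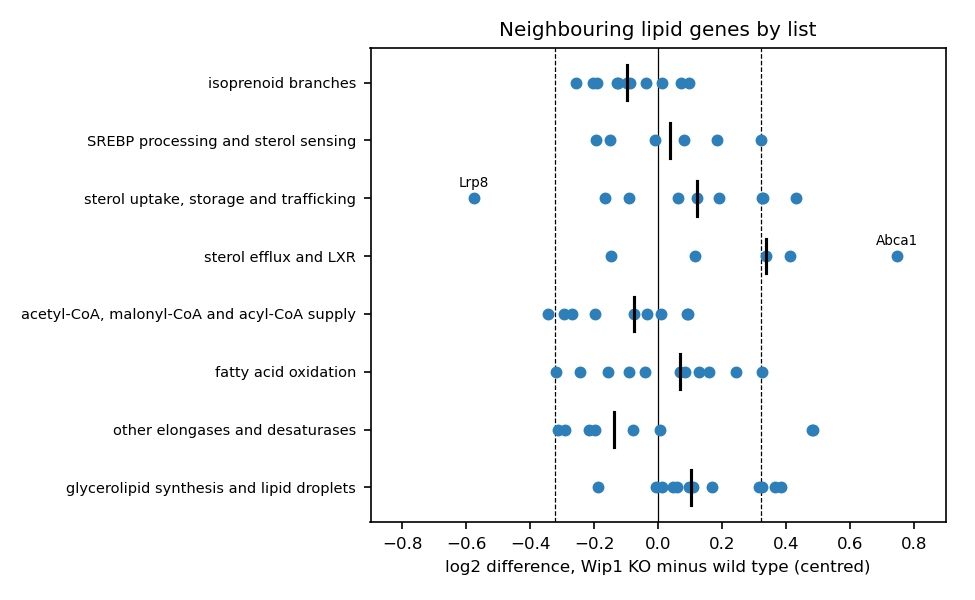
Log2 difference (Wip1 KO minus wild type) of the 71 detected genes on 8 lists of neighbouring lipid pathways; each point is a gene by its brightest probe set, black bars are list medians and dashed lines mark 0.32 either way. Abca1 (0.75) and Lrp8 (-0.58) lie furthest from 0 on either side.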

How the data were processed

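Total RNA of haematopoietic stem cells was hybridised to Affymetrix arrays, 1 for each genotype. The deposited values are linear intensities per probe set; MAS5 is the only tool named, per the submitters' processing notes, and whether or how the authors normalized between arrays was not stated there. Probe sets were named through the platform annotation (34945 with 1 gene, 932 with several, 9160 not listed). In Python 3.11.15, intensities were turned to log2, a median shift of -0.013 was removed, and values under the floor (each array's median) were set to it, so that differences against them are bounds. All differences were taken over 11440 detected genes and members read against these. The members and gene lists were chosen with earlier results of these data known; all 34 members are named. On the neighbouring pathway lists the naming rule covered genes past 1.5-fold, and any others named there, and the markers named, were chosen after their values were seen. Promoter sequences are RefSeq's (GRCm38.p6); the table used here had entries for 27 members. Windows of Fdps, Fdft1, Sqle, Stard4, Fads1, Scd1 and Scd2 were not analysed here. The steps were checked on simulated data. Alternatives covered centring, normalization, floor, offset and probe set choice. There is 1 array per genotype, and this number limits the precision.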

Additional observations from a re-analysis of the deposited data

How the results depend on the processing

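Across 9 alternatives (no centring, quantile, loess, floors at the 25th and 75th percentile, no floor, an added offset, the median over probe sets, and leaving out the _s_at, _x_at and _a_at classes) no detected member reached 1.5-fold either way, and the median of the members lay between 0.011 and 0.05. A change smaller than the SD between probe sets was counted as none. With the floor at the 75th percentile, where 23 members were detected, 1 member in place of 3 was at least 0.32 higher (log2) in Wip1 KO, and the squalene and lanosterol median was 0.27 in place of 0.025, with 2 members left. The count of 3 was 2 in 5 others: Insig2 was below the threshold under quantile (0.29), loess (0.317) and the offset (0.26), and Fdft1 and Hsd17b7 as medians over probe sets (0.21 and 0.12) and without the shared classes. Sc5d instead passed the threshold as the median over probe sets (0.35), and Lss without the shared classes (0.38), so the members that pass change with probe set choice. As medians over probe sets 2 members in place of 0 were at least 0.32 lower (Idi1 at -0.38 and Cyp51 at -0.34). Without the _s_at, _x_at and _a_at classes Fdft1 turned to -0.069; 7 other values of single members moved by more than that SD. No leaving out of a replicate was possible with 1 array per genotype.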

Other observations

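Whole-number steps appeared between the arrays. In 774 of 45037 probe sets (1.72%) the intensities of Wip1 KO and wild type differed by a whole number other than 0, to within 1e-06 intensity units, where decimals spread evenly would give 0.0002%. The brightest Elovl1 probe set is among them, with a difference of -37 units. Another 2535 probe sets (5.63%) held the same value on both arrays, among them 3 of the 78 member probe sets (1 each of Lss, Sc5d and Insig2). The step that made these values was not tested.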
